A study of Mus musculus with 12 samples.

Results

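The 31 genes described here encode subunits of the 26S proteasome, 14 of its 20S core and 17 of its 19S cap. They were chosen by their Ensembl identifiers, with symbols from the accompanying list, and all 31 were found in both expression tables, so that 0 were absent. Together the tables held 30832 genes, of which 23445 were in both. RNA was taken from tumors that had grown in the pancreas of mice grafted with AsPC-1 or BxPC-3 cells, both established human lines of pancreatic ductal adenocarcinoma. The groups were AsPC-1 with arsenic trioxide (ATO, an arsenic compound used against acute promyelocytic leukemia), AsPC-1 control, BxPC-3 with ATO and BxPC-3 control, with 3 libraries each. All samples have the genotype label WT, and the labels give the mouse as organism although the grafted lines and all gene identifiers are human. The dose and schedule of ATO, what control mice received, their strain and age, and whether the libraries of a group came from separate mice were not stated. The p-values therefore measure the spread between these libraries, which may be technical.

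The 26S proteasome degrades proteins that carry ubiquitin chains. Its core is a barrel of stacked rings: alpha subunits form the outer rings and gate the entry, and beta subunits form the inner rings, where PSMB5, PSMB6 and PSMB7 carry the active sites. The cap sits on the end of the barrel. Its base holds the ring of ATPases that unfolds substrates and feeds them in, together with scaffold and ubiquitin-binding subunits, and its lid includes the enzyme that removes the ubiquitin chain. In arsenic-treated leukemia cells this machinery is known for breaking down the PML-RARA fusion protein, and cells answer a shortage of proteasome activity by raising transcription of its subunit genes.

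Values are FPKM, here the reads of a gene scaled by its length and by a constant of the library. Comparisons of level between genes rest on the lengths implied by the values, and how reads were counted over them is not described. The reads behind the values, recovered from their steps, summed to between 11219404 and 19306801 per library, and a subunit had between 126 and 4485 reads in a library. The library labelled BxPC-3 control 3 stood apart from its group. Over the 31 subunits, after centring on their median difference, its mean absolute difference in log2 units was 0.106 from the AsPC-1 ATO mean and 0.151 from the AsPC-1 control mean, against 0.507 from the BxPC-3 ATO mean and 0.476 from the mean of the other BxPC-3 control libraries. In 26 of 31 subunits it lay nearer to the AsPC-1 than to the BxPC-3 control mean. It was left out of every group value and test below unless it is named, which leaves 2 BxPC-3 control libraries. BxPC-3 ATO 1 also differed from its group, by 0.217 from the mean of BxPC-3 ATO 2 and 3 against 0.0964 from the BxPC-3 control mean. AsPC-1 ATO 1 likewise differed by 0.191 from the mean of AsPC-1 ATO 2 and 3 against 0.130 from the AsPC-1 control mean, and BxPC-3 control 2 by 0.1199 from BxPC-3 control 1 against 0.0951 from the BxPC-3 ATO mean.

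All 31 subunits were detected in all 12 libraries, at mean levels over the 11 libraries between 1.90 FPKM for PSMA2 and 70.1 FPKM for PSMA7, both of the alpha ring. PSMA6 was also low, at 2.65 FPKM, so the alpha ring held both ends of the range and had a median of 11.98 FPKM over its 7 members. The beta ring had the highest median, 38.1 FPKM, and ran between 12.03 FPKM for PSMB2 and 52.1 FPKM for PSMB4, both structural subunits without an active site. The 6 ATPases had a median of 16.6 FPKM, with PSMC1 lowest at 4.97 FPKM and PSMC3 highest at 28.2 FPKM. Among the 3 other base subunits the scaffold PSMD1 was lowest at 15.3 FPKM and the ubiquitin receptor PSMD4 highest at 30.5 FPKM. The lid had the lowest median, 9.21 FPKM, between PSMD6 at 6.85 FPKM and PSMD13 at 21.4 FPKM. Subunits of the same ring, which occur in equal numbers in the complex, thus differed widely in FPKM. The level went with the recovered gene length, which ran between 1179 bases for PSMB3 and 9123 bases for PSMD6 (Pearson r = -0.69 on log2 values and Spearman rho = -0.74 over the 31 genes, a description, since length is also the divisor of FPKM).

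**Figure D1:**
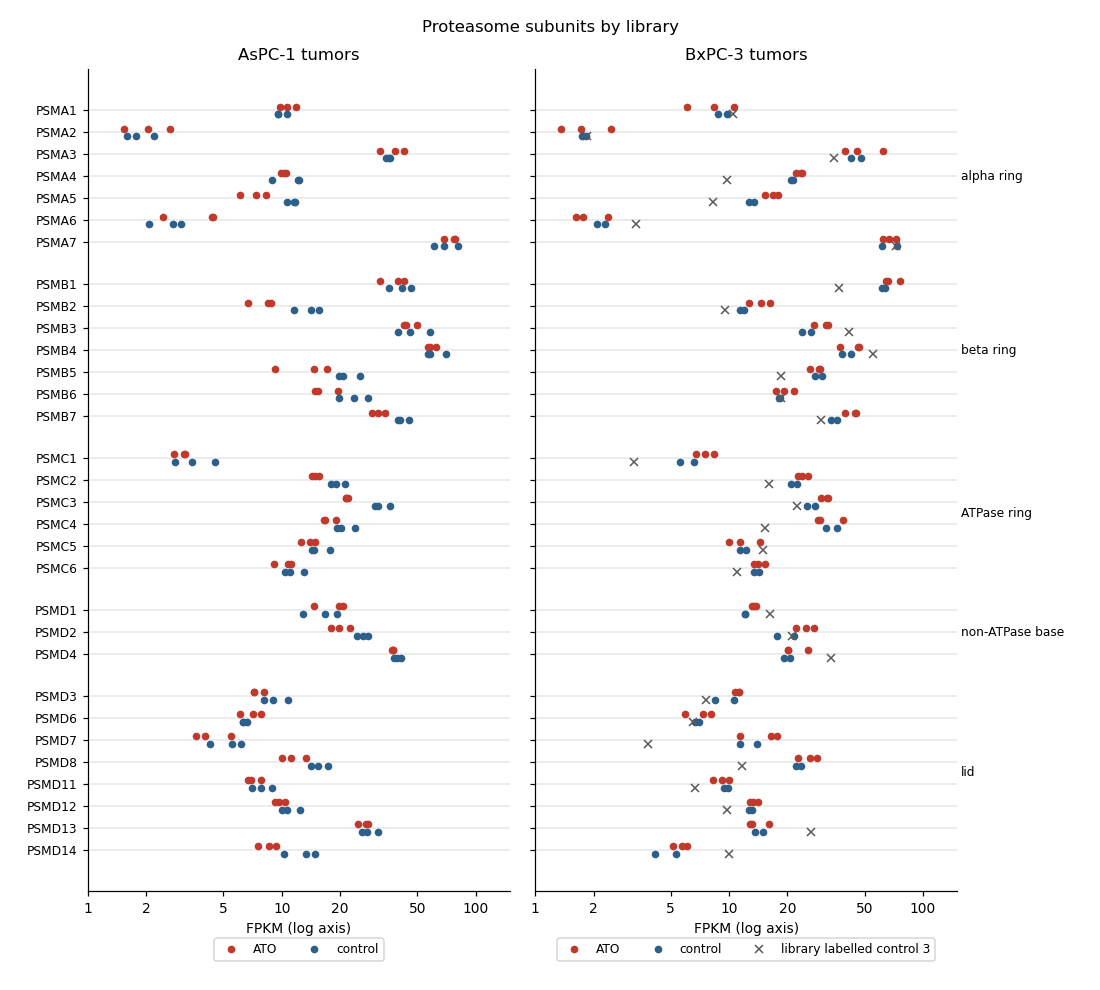
FPKM of each proteasome subunit in each library on a log axis, AsPC-1 tumors on the left and BxPC-3 tumors on the right, with 1 point per library, ATO above control in each row and a cross for the library labelled BxPC-3 control 3. PSMA2 has the lowest mean in every group; PSMA7 has the highest mean in every group but BxPC-3 ATO, where PSMB1 lies above it (69.00 against 67.1 FPKM), and the cross mostly lies away from the BxPC-3 points.

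By median FPKM the core exceeded the cap in every library. Length is the divisor of FPKM, and FPKM fell with the recovered length (Spearman rho = -0.74 over the 31 genes). The order is one of FPKM. Read numbers were not compared between core and cap, and the part of length in the order was not tested. The median log2(FPKM + 1) of the 14 core subunits minus that of the 17 cap subunits was 0.50, 0.30 and 0.40 in AsPC-1 ATO libraries and 0.42, 0.70 and 0.59 in AsPC-1 control libraries. It was 0.73, 0.93 and 0.77 in BxPC-3 ATO libraries and 0.71 and 0.80 in BxPC-3 control libraries, and 0.63 in the library labelled BxPC-3 control 3. The ATO and control libraries of each line overlapped, and every BxPC-3 library other than that one lay above every AsPC-1 library. That order did not hold when means over members replaced medians: the group means were then 0.48 for AsPC-1 ATO and 0.44 for AsPC-1 control, 0.44 for BxPC-3 ATO and 0.46 for BxPC-3 control. The sign of the ATO difference in the core-to-cap gap also turned in both lines with that change.

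The subunits' joint share of the recovered reads separated ATO from control in both lines, in opposite directions. It was 0.171% ± 0.0109 in AsPC-1 ATO libraries and 0.247% ± 0.0175 in AsPC-1 control libraries (SD, n = 3 each), with no overlap. In BxPC-3 it was 0.306% ± 0.00732 in ATO libraries (SD, n = 3) and 0.260% ± 0.0201 in control libraries (SD, n = 2), also with no overlap. The share is a score over members that were picked with results known and has no test here. A fixed set of 20 genes, the most abundant by mean share over all 12 libraries, moved by group mean in the opposite direction in both lines. These genes held 36.7% ± 2.22 of the reads in AsPC-1 ATO and 20.5% ± 2.43 in AsPC-1 control libraries. They held 14.6% ± 3.83 in BxPC-3 ATO and 20.6% ± 5.65 in BxPC-3 control libraries. In BxPC-3 the groups overlapped, with 19.0% in BxPC-3 ATO 1 and 16.6% in BxPC-3 control 2. The part of these 20 genes in the result was not tested. Among the reads outside those 20 genes, the subunits' share was 0.270% ± 0.0137 in AsPC-1 ATO and 0.311% ± 0.0281 in AsPC-1 control libraries, and 0.359% ± 0.00840 in BxPC-3 ATO and 0.328% ± 0.00193 in BxPC-3 control libraries. In bulk tumors, fewer cells of a type and less RNA per cell cannot be told apart.

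**Figure D2:**
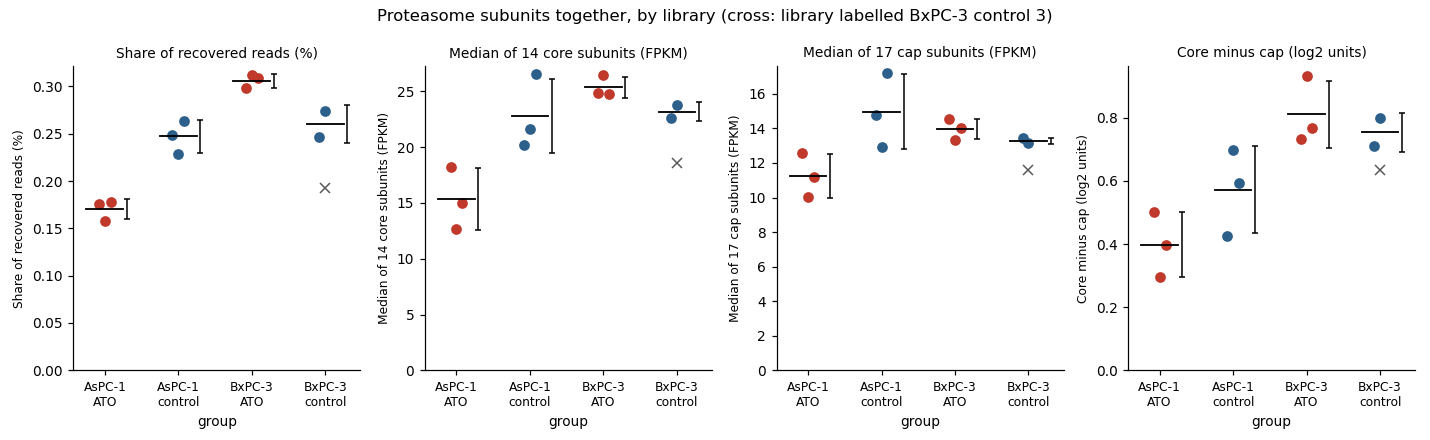
Proteasome subunits together in each library: their share of recovered reads in percent, the median FPKM of the 14 core and of the 17 cap subunits, and the log2 difference between core and cap medians, by group, with lines for group means, bars for SD and a cross for the library labelled BxPC-3 control 3. The share is lower in AsPC-1 ATO (0.171%) than in AsPC-1 control libraries (0.247%) and higher in BxPC-3 ATO (0.306%) than in BxPC-3 control libraries (0.260%).

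In AsPC-1 tumors most subunits had lower values with ATO than in controls, the ATPases all below 0 on the log2 scale and the alpha ring near the level of other genes. The beta subunits were also all below 0, except that PSMB4 stood at 0.04 after quantile normalization. By limma on log2(FPKM + 1) with Benjamini-Hochberg adjustment over the 15287 genes tested, 0 of 31 subunits had an adjusted p under 0.05, as had 0% of all genes. At an unadjusted p under 0.05, 10 subunits were lower and 0 higher, beside 6.02% of all genes lower and 15% higher. That count of lower subunits was 3 without AsPC-1 ATO 2 (1.85% of all genes lower), 5 without ATO 3 (2.4%), 6 without control 1 (3.18%) and 3 without control 3 (4.4%). In 13 subunits, 5 of the core and 8 of the cap, every ATO library was below every control library on deposited values, where 8.1% of all genes were, and in 0 subunits every ATO library was above, where 17.4% of all genes were. After quantile normalization 13 subunits were below, 4 of the core and 9 of the cap, beside 12.4% of all genes, and 0 above, beside 13.2%.

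The median log2 fold change was -0.15 over the 31 subunits, whose values lay between -0.72 and 0.37, and 0.12 over all genes tested. By ring it was -0.40 over the beta ring, where 7 of 7 values were below 0 (PSMB4 only on the deposited scale and with voom), and 0.09 over the alpha ring, where 2 of 7 were. With voom the alpha ring had a median of -0.07 and 6 of 7 values below 0, since PSMA1, PSMA2, PSMA3 and PSMA7 changed sign; PSMA2 did so after quantile normalization too. It was -0.21 over the ATPase ring (6 of 6 below 0), -0.07 over the non-ATPase base (2 of 3) and -0.20 over the lid (7 of 8, and 8 of 8 after quantile normalization or with voom, where PSMD6 changed sign). Quantile normalization moved the median of all genes down by 0.14, and limma's voom on the recovered reads moved it down by 0.13. Taken relative to the median of all genes, the subunits' median was -0.28 for values as deposited, -0.23 when quantile normalized and -0.32 with voom. On that relative scale the beta ring stood at -0.52, -0.36 and -0.57 under the same 3 scalings, and the alpha ring at -0.03, 0.03 and -0.06, so the alpha ring had no fixed sign.

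The catalytic subunits were all lower in AsPC-1 ATO tumors by value. PSMB5 (ENSG00000100804), which carries the chymotrypsin-like site targeted by bortezomib, had 17.03, 9.25 and 14.7 FPKM in ATO tumors and 20.8, 19.8 and 25.3 FPKM in controls. PSMB6 (ENSG00000142507), with the caspase-like site, had 19.5, 14.8 and 15.4 FPKM in ATO tumors and 19.7, 23.5 and 27.8 FPKM in controls. PSMB7 (ENSG00000136930), with the trypsin-like site, had 34.00, 29.1 and 31.3 FPKM in ATO tumors and 40.6, 39.6 and 45.4 FPKM in controls. None of the 3 overlapped between the groups, although for PSMB6 the highest ATO library and the lowest control library nearly met. The log2 fold changes were -0.68 for PSMB5 (SE 0.23, limma adjusted p = 0.205), -0.49 for PSMB6 (SE 0.19, adjusted p = 0.221) and -0.40 for PSMB7 (SE 0.15, adjusted p = 0.216).

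The smallest p-values belonged to PSMB2 and PSMC3. PSMB2 (ENSG00000126067), a structural beta subunit, had 8.76, 6.71 and 8.52 FPKM in ATO tumors and 15.6, 11.6 and 14.2 FPKM in controls, with a gap between the groups (log2 fold change -0.72, SE 0.17, limma adjusted p = 0.15). PSMC3 (ENSG00000165916), an ATPase of the cap, had 21.5, 21.9 and 21.4 FPKM in ATO tumors and 31.5, 30.1 and 36.1 FPKM in controls, so its ATO libraries lay within a narrow band well below all controls (log2 fold change -0.57, SE 0.15, limma adjusted p = 0.162). Other subunits with unadjusted p under 0.05 were the alpha subunit PSMA5 (-0.59), the lid deubiquitinase PSMD14 (-0.53), the lid subunit PSMD8 (-0.42), the base scaffold PSMD2 (-0.37) and the ATPase PSMC2 (-0.36), all as log2 fold changes. On the high side PSMA6, the low alpha subunit, had 2.45, 4.35 and 4.42 FPKM in ATO tumors and 2.05, 3.01 and 2.75 FPKM in controls, and the groups overlapped (log2 fold change 0.37, SE 0.22, limma adjusted p = 0.334). PSMD1 had 14.7, 20.6 and 19.8 FPKM in ATO tumors and 16.7, 12.9 and 19.3 FPKM in controls, again with overlap (log2 fold change 0.17, SE 0.20, limma adjusted p = 0.634). With voom on the recovered reads 0 subunits passed, while 39 of all genes passed as higher and 3 as lower. At an unadjusted p under 0.05, voom gave 12 subunits lower and 0 higher, beside 13.4% of all genes lower and 10.8% higher.

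**Figure D3:**
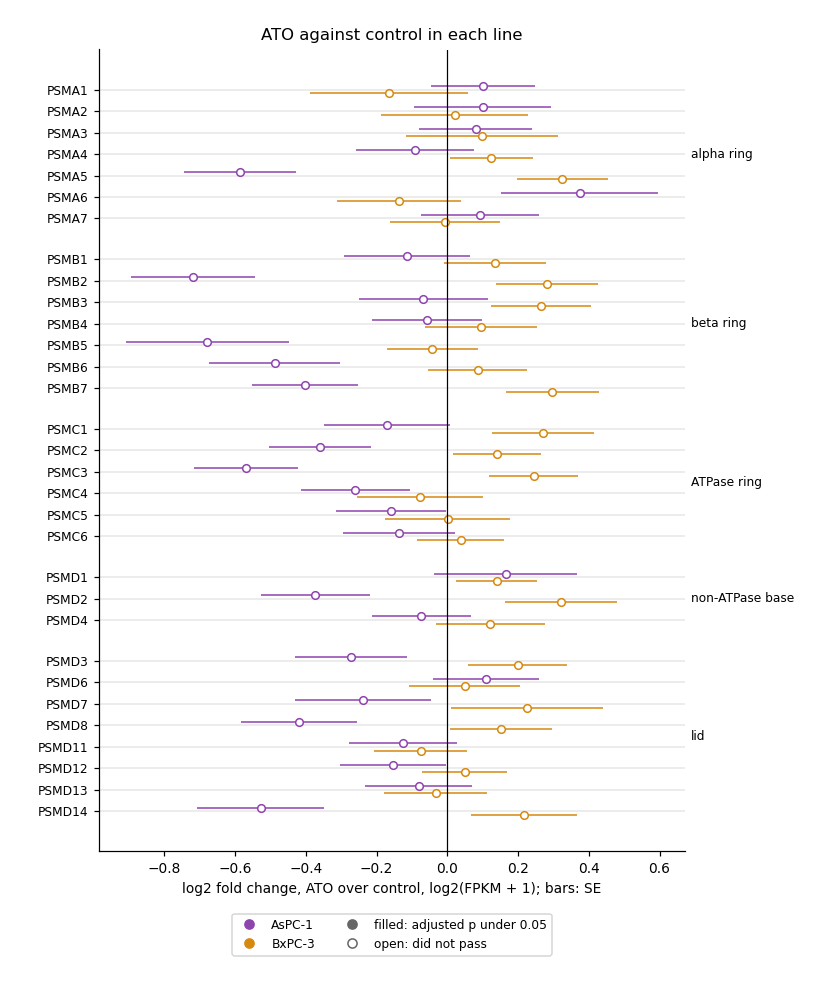
Log2 fold change of each proteasome subunit, ATO over control, in AsPC-1 tumors (purple) and BxPC-3 tumors (orange) on the log2(FPKM + 1) scale, with bars for the standard error; all points are open, since no adjusted p is under 0.05. The purple points of the beta and ATPase rings all lie below 0 (PSMB4 not so after quantile normalization, at 0.04), and most orange points lie above 0.

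In BxPC-3 tumors the values leaned the other way. Of 31 subunits 24 had a log2 fold change above 0; the values lay between -0.16 and 0.33 with a median of 0.12, beside -0.01 over all genes. By limma with Benjamini-Hochberg adjustment, 0 of 31 subunits and 0% of the 14633 genes tested had an adjusted p under 0.05. At an unadjusted p under 0.05, 1 subunit was higher and 0 were lower, beside 2.6% of all genes higher and 2.58% lower. Without BxPC-3 ATO 1, 7 subunits were higher and 0 lower by that measure, beside 9.46% of all genes higher and 14.4% lower, and without any other single library 0 were. On deposited values every ATO library was above every control library in 12 subunits, 6 of the core and 6 of the cap, where 12.3% of all genes were, and below in 0 subunits, where 9.34% of all genes were. After quantile normalization 10 subunits were above, beside 11.6% of all genes, and 1 below, beside 10.04%. With voom 0 subunits passed and 0 had an unadjusted p under 0.05, where 2.5% of all genes were higher and 3.25% lower.

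PSMA5, the 1 subunit past the unadjusted threshold, had 15.3, 16.9 and 17.9 FPKM in BxPC-3 ATO tumors and 12.8 and 13.4 FPKM in controls, without overlap (log2 fold change 0.33, SE 0.13, limma adjusted p = 0.883). PSMB7 had 39.8, 44.4 and 45.00 FPKM in ATO tumors and 33.4 and 36.3 FPKM in controls, also without overlap (log2 fold change 0.30, SE 0.13, limma adjusted p = 0.883). The other catalytic subunits overlapped. PSMB5 had 26.2, 29.1 and 29.3 FPKM in ATO tumors and 30.2 and 27.9 FPKM in controls (log2 fold change -0.04), and PSMB6 had 19.3, 21.7 and 17.4 FPKM in ATO tumors and 18.1 and 18.4 FPKM in controls (log2 fold change 0.09). On the low side PSMA6 had 2.39, 1.76 and 1.62 FPKM in ATO tumors and 2.29 and 2.10 FPKM in controls (log2 fold change -0.14, SE 0.18, limma adjusted p = 0.907). PSMA1, another alpha subunit, had 10.6, 8.37 and 6.08 FPKM in ATO tumors and 9.75 and 8.80 FPKM in controls (log2 fold change -0.16, SE 0.22, limma adjusted p = 0.91). In both of these the ATO libraries were spread wide around the controls, and for PSMA1 the sign turned without BxPC-3 ATO 3 (log2 fold change 0.02). With the library labelled control 3 kept, 0 subunits passed and 10 were higher without overlap, where 7.09% of all genes were.

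Whether the ATO difference itself differed between the lines was tested as the line by treatment term of 1 model over the 11 libraries and 16600 genes. A negative value means a lower ATO response in AsPC-1 than in BxPC-3. Of the 31 subunits 25 had a negative term, with a median of -0.22 beside 0.09 over all genes, and 0 passed limma's adjusted threshold, as did 0% of all genes. At an unadjusted p under 0.05, 10 subunits were lower and 0 higher, beside 4.37% of all genes lower and 11.2% higher. Without BxPC-3 control 1, 5 were lower, beside 1.85% of all genes. With voom 0 passed, and 11 were lower and 0 higher at an unadjusted p under 0.05, beside 7.21% of all genes lower and 8.97% higher. All 7 beta subunits and all 6 ATPases had a negative term, with medians of -0.57 and -0.31. Relative to the median of all genes, which moved by 0.15 between scalings, the subunits' median was -0.31 for deposited values, -0.25 when quantile normalized and -0.34 with voom. The count of negative terms was 27 when quantile normalized and 29 with voom. The terms whose sign turned with scaling were those of PSMA2, PSMA3, PSMA7, PSMD1 and PSMD6.

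The smallest p-values were those of PSMC3 (difference in log2 fold change -0.81, SE 0.17, limma adjusted p = 0.147) and PSMA5 (-0.91, SE 0.19, adjusted p = 0.152). PSMC3 had 29.9, 32.6 and 32.04 FPKM in BxPC-3 ATO tumors and 25.2 and 27.7 FPKM in BxPC-3 controls, with the groups in the opposite order to AsPC-1. PSMA5 had 8.29, 6.06 and 7.38 FPKM in AsPC-1 ATO tumors and 11.6, 10.6 and 11.7 FPKM in AsPC-1 controls, also in the opposite order to BxPC-3. Without BxPC-3 ATO 1 these and PSMB2 passed, with an adjusted p of 0.041 for PSMC3 and PSMA5; 0.435% of all genes then passed as lower and 2.58% as higher. Among the catalytic subunits the differences were -0.70 for PSMB7 (limma adjusted p = 0.189), -0.64 for PSMB5 (0.325) and -0.57 for PSMB6 (0.296). The highest positive terms by p-value were those of PSMA6 (0.51, adjusted p = 0.41) and PSMA1 (0.27, adjusted p = 0.597), both alpha subunits.

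In 7 subunits, every AsPC-1 ATO library was below every AsPC-1 control and every BxPC-3 ATO library above every BxPC-3 control: PSMA5, PSMB2, PSMB7, PSMC2, PSMC3, PSMD2 and PSMD3. This pattern held for 1.33% of the 12436 genes tested in both lines and was counted on deposited values only. The reverse pattern held for 0 subunits and 1.59% of genes. PSMB2 had 12.7, 14.6 and 16.2 FPKM in BxPC-3 ATO tumors and 11.4 and 11.9 FPKM in BxPC-3 controls, the reverse of its order in AsPC-1. The ATPase PSMC2 had 15.5, 14.3 and 14.8 FPKM in AsPC-1 ATO tumors and 21.1, 17.98 and 19.1 FPKM in AsPC-1 controls, with 22.6, 25.5 and 23.9 FPKM in BxPC-3 ATO tumors and 20.8 and 22.5 FPKM in BxPC-3 controls. In BxPC-3 its groups nearly touched. PSMD2, the base scaffold that receives shuttle factors, had 18.01, 19.7 and 22.5 FPKM in AsPC-1 ATO tumors and 27.9, 24.5 and 26.2 FPKM in AsPC-1 controls, with 22.03, 25.1 and 27.5 FPKM in BxPC-3 ATO tumors and 17.7 and 21.8 FPKM in BxPC-3 controls. The lid subunit PSMD3 had 7.17, 8.05 and 7.18 FPKM in AsPC-1 ATO tumors and 8.11, 8.98 and 10.7 FPKM in AsPC-1 controls, with 10.7, 11.2 and 11.3 FPKM in BxPC-3 ATO tumors and 8.48 and 10.6 FPKM in BxPC-3 controls. For PSMD2 and PSMD3 the gap in BxPC-3 was also small beside the spread within the groups. With the library labelled BxPC-3 control 3 kept, the pattern held for 7 subunits and 0.825% of 12845 genes.

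In control tumors the lines differed in single subunits, in both directions. For the line comparisons the 11 libraries were quantile normalized together, since the tables may have been scaled separately; the FPKM values given are as deposited. By limma with Benjamini-Hochberg adjustment, 4 subunits were higher and 8 lower in AsPC-1 than in BxPC-3 controls, beside 22.8% of the 16600 genes higher and 24% lower. As a share of the 31 subunits, the higher count was below that of all genes and the lower count near it. Without overlap between the lines, 7 were higher and 14 lower in AsPC-1, where 33.1% and 34.4% of all genes were. Of those that passed, the higher ones were PSMD14, PSMD13 and PSMD4 of the cap and PSMB3 of the beta ring. The lower ones that passed were PSMD7 and PSMD8 of the lid, PSMC1, PSMC2 and PSMC4 of the ATPase ring, PSMA3 and PSMA4 of the alpha ring and PSMB1 of the beta ring. Leaving out single AsPC-1 control libraries gave 9 to 13 calls, beside 19.9% to 22.1% of all genes higher and 21% to 23.6% lower. The median over the 31 subunits was -0.12, and it was 0.03 both on the deposited scale and with voom. On the deposited scale 5 subunits were higher and 6 lower, beside 23.5% and 21.8% of all genes. With voom 5 were higher and 6 lower, beside 25.2% and 25.8%.

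PSMD14 and PSMD7, which form the deubiquitinating pair of the lid, differed most and in opposite directions. PSMD14, the active enzyme, had 14.8, 10.2 and 13.3 FPKM in AsPC-1 controls and 4.15 and 5.31 FPKM in BxPC-3 controls (log2 fold change 1.16, SE 0.19, limma adjusted p = 0.000557). PSMD7, its inactive partner, had 6.18, 4.27 and 5.51 FPKM in AsPC-1 controls and 14.02 and 11.4 FPKM in BxPC-3 controls (log2 fold change -1.21, SE 0.24, limma adjusted p = 0.00212). Neither overlapped between the lines. The lid subunit PSMD13 had 26.01, 27.4 and 31.3 FPKM in AsPC-1 controls and 14.9 and 13.7 FPKM in BxPC-3 controls (log2 fold change 0.74, SE 0.15, limma adjusted p = 0.002). The ubiquitin receptor PSMD4 had 39.2, 37.8 and 41.2 FPKM in AsPC-1 controls and 19.2 and 20.7 FPKM in BxPC-3 controls (log2 fold change 0.73, SE 0.14, limma adjusted p = 0.0013). Both stood at about the same ratio between the lines and did not overlap.

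PSMA4, a gate-ring subunit, had 12.3, 8.88 and 12.1 FPKM in AsPC-1 controls and 21.4 and 20.9 FPKM in BxPC-3 controls (log2 fold change -1.03, SE 0.15, limma adjusted p = 0.00022). The ATPase PSMC4 had 19.3, 20.1 and 23.7 FPKM in AsPC-1 controls and 31.5 and 36.2 FPKM in BxPC-3 controls (log2 fold change -0.85, SE 0.17, limma adjusted p = 0.00207). PSMB1, a structural beta subunit, had 35.8, 41.8 and 46.6 FPKM in AsPC-1 controls and 63.98 and 61.2 FPKM in BxPC-3 controls (log2 fold change -0.78, SE 0.18, limma adjusted p = 0.00446). In these 3 every AsPC-1 value lay below every BxPC-3 value. PSMB3, of the same ring, had 39.9, 45.9 and 58.1 FPKM in AsPC-1 controls and 23.9 and 26.6 FPKM in BxPC-3 controls (log2 fold change 0.66, SE 0.18, limma adjusted p = 0.0122), and its call was lost without BxPC-3 control 1 (adjusted p = 0.0904). The other calls were PSMD8 (-0.71), PSMC1 (-0.68), PSMA3 (-0.57) and PSMC2 (-0.34), as log2 fold changes. The catalytic subunits did not pass: PSMB5 had a log2 fold change of -0.59 (limma adjusted p = 0.0616), PSMB6 of 0.16 (0.504) and PSMB7 of 0.02 (0.899).

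All 12 calls rested on leaving out the library labelled BxPC-3 control 3. With it kept as labelled, 0 subunits passed by limma on quantile-normalized values, as did 0% of the 16745 genes tested. By voom 0 subunits passed too, beside 0% of all genes higher and 0.00572% lower. At an unadjusted p under 0.05, limma gave 4 higher and 1 lower, no larger a share than the 14.5% of all genes higher and 14.4% lower. That library had 10.04 FPKM of PSMD14, 3.84 FPKM of PSMD7, 26.6 FPKM of PSMD13 and 9.78 FPKM of PSMA4, each nearer to AsPC-1 controls than to the other BxPC-3 controls.

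In ATO tumors most subunits were lower in AsPC-1 than in BxPC-3. Of the 31, 3 subunits were higher and 19 lower by limma with Benjamini-Hochberg adjustment, beside 29.3% of the 16600 genes higher and 31.9% lower. Over the subunits the log2 fold change had a median of -0.56, and over all genes of -0.02. Without overlap between the lines, 5 were higher and 19 lower in AsPC-1, where 31.1% and 33.3% of all genes were. By group, 5 of 7 beta subunits, 5 of 6 ATPases, 5 of 8 lid subunits, 3 of 7 alpha subunits and 1 of 3 other base subunits passed as lower, and the higher ones were PSMD13 of the lid, PSMD4 of the base and PSMA6 of the alpha ring. On the deposited scale, where the median of all genes lay 0.19 higher, 7 subunits were higher and 15 lower, and all genes split into 5848 higher and 4110 lower, against 4864 higher and 5291 lower after quantile normalization. Relative to the median of all genes the subunits' median was -0.54 after quantile normalization, -0.53 on the deposited scale and -0.52 with voom.

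The lid subunit PSMD7 was again furthest apart, with 4.04, 3.61 and 5.45 FPKM in AsPC-1 ATO tumors and 11.4, 17.7 and 16.5 FPKM in BxPC-3 ATO tumors (log2 fold change -1.83, SE 0.22, limma adjusted p = 3.82e-05). PSMA5 had 8.29, 6.06 and 7.38 FPKM in AsPC-1 ATO tumors and 15.3, 16.9 and 17.9 FPKM in BxPC-3 ATO tumors (log2 fold change -1.36, SE 0.15, limma adjusted p = 2.31e-05), although it had not passed in controls (log2 fold change -0.32, SE 0.17, limma adjusted p = 0.144). PSMA4 had 9.93, 10.5 and 10.3 FPKM in AsPC-1 ATO tumors and 23.5, 23.8 and 22.1 FPKM in BxPC-3 ATO tumors (log2 fold change -1.34, SE 0.13, limma adjusted p = 9.36e-06). None of these overlapped between the lines. PSMD8, a lid subunit, had 13.3, 10.04 and 11.1 FPKM in AsPC-1 ATO tumors and 22.6, 28.4 and 26.1 FPKM in BxPC-3 ATO tumors (log2 fold change -1.34, SE 0.15, limma adjusted p = 2.39e-05), also without overlap. The other 15 that passed as lower had log2 fold changes between -1.31 for PSMC1 and -0.47 for PSMB6. Leaving out single libraries gave 20 to 22 calls, beside 25.9% to 30% of all genes higher and 28.2% to 32.2% lower.

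All catalytic subunits passed as lower in AsPC-1 than in BxPC-3 under ATO on quantile-normalized values. For PSMB5 the AsPC-1 ATO mean was 13.7 ± 3.99 FPKM and the BxPC-3 ATO mean 28.2 ± 1.74 FPKM (SD, n = 3 each; log2 fold change -1.27, SE 0.21, limma adjusted p = 0.000397). For PSMB7 the means were 31.5 ± 2.44 FPKM in AsPC-1 ATO and 43.1 ± 2.85 FPKM in BxPC-3 ATO tumors (log2 fold change -0.68, SE 0.12, limma adjusted p = 0.000582). For PSMB6 they were 16.5 ± 2.54 FPKM in AsPC-1 ATO and 19.5 ± 2.15 FPKM in BxPC-3 ATO tumors (log2 fold change -0.47, SE 0.17, limma adjusted p = 0.0289). This call was lost on the deposited scale (limma adjusted p = 0.229) and with voom (0.074). As deposited the lines overlapped, with 19.5, 14.8 and 15.4 FPKM of PSMB6 in AsPC-1 ATO and 19.3, 21.7 and 17.4 FPKM in BxPC-3 ATO tumors. On the high side PSMD13 had 24.6, 27.3 and 27.9 FPKM in AsPC-1 ATO and 16.01, 13.1 and 12.9 FPKM in BxPC-3 ATO tumors (log2 fold change 0.69, SE 0.13, limma adjusted p = 0.00104), and PSMD4 had 37.7, 37.5 and 36.97 FPKM in AsPC-1 ATO and 25.5, 20.2 and 20.1 FPKM in BxPC-3 ATO tumors (log2 fold change 0.54, SE 0.12, limma adjusted p = 0.00281). Both were thus higher in AsPC-1 with ATO as in controls. PSMA6 had 2.45, 4.35 and 4.42 FPKM in AsPC-1 ATO and 2.39, 1.76 and 1.62 FPKM in BxPC-3 ATO tumors (log2 fold change 0.48, SE 0.14, limma adjusted p = 0.0133), and its call was lost without AsPC-1 ATO 2 (adjusted p = 0.051) or AsPC-1 ATO 3 (0.0588). PSMD14, the subunit furthest above BxPC-3 in controls, did not pass under ATO (log2 fold change 0.32, SE 0.17, limma adjusted p = 0.125), with 9.32, 7.52 and 8.59 FPKM in AsPC-1 ATO and 5.69, 5.15 and 6.06 FPKM in BxPC-3 ATO tumors. Its line by treatment term, from the separate fit of deposited values, was -0.74 (SE 0.23, limma adjusted p = 0.235).

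**Figure D4:**
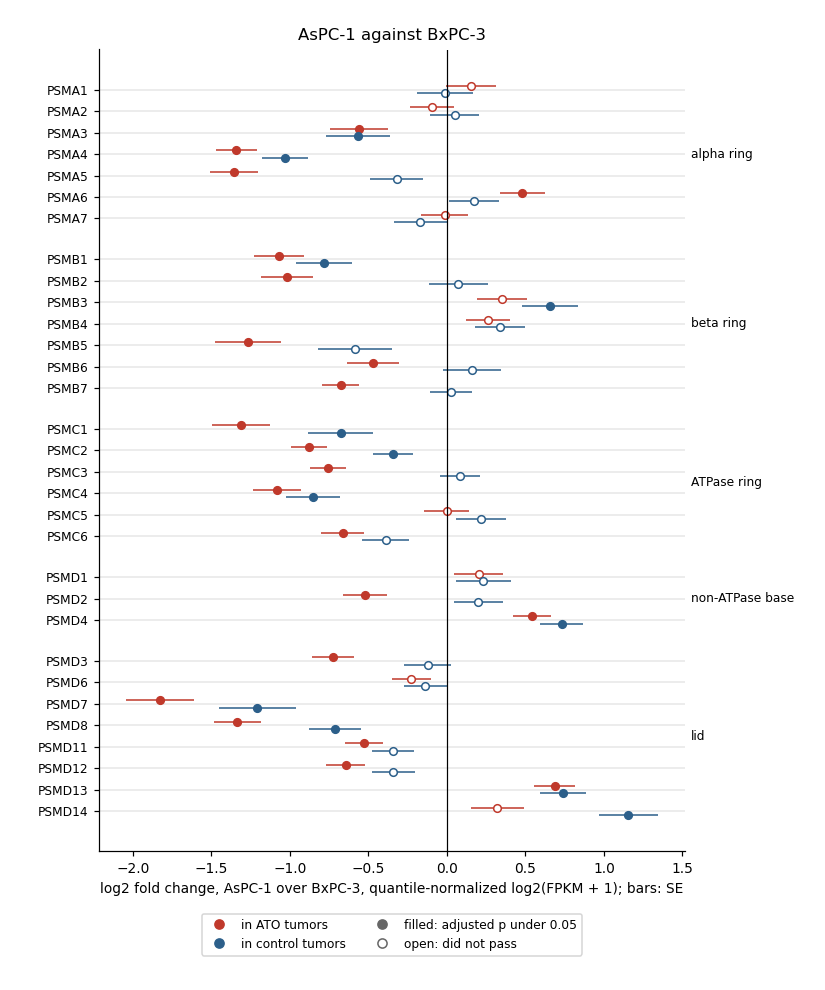
Log2 fold change of each proteasome subunit, AsPC-1 over BxPC-3, in ATO tumors (red) and in control tumors (blue) on quantile-normalized log2(FPKM + 1) values, with bars for the standard error and filled points for an adjusted p under 0.05. In ATO tumors 19 subunits are lower and 3 higher in AsPC-1, beside 31.9% and 29.3% of all genes. In control tumors 8 are lower and 4 higher, beside 24% and 22.8% of all genes.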

How the data were processed

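FPKM values came in 1 table per line as the authors deposited them, with the unit inferred from the values: each was a whole number of reads times a constant of the library, divided by a whole gene length. Both were recovered in Python 3.11.15 and numba 0.67.0 (lengths to 30000 bases, 99.9% of values whole within 0.05 reads). The builds named in the submitters' processing notes are GRCm38, mm10 and hg38, without roles. Aligner, counting, strand, pseudogene copies and reads from mouse cells are not described there. The constant did not follow the read sum, which was 105% to 118% of the total it implied in AsPC-1 ATO, 86.3% to 88.7% in AsPC-1 control, 72.6% to 79.3% in BxPC-3 ATO and 76.7% to 84.5% in BxPC-3 control libraries.

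Within each line, log2(FPKM + 1) was tested by limma 3.58.1 (R 4.3.3, eBayes with a trended prior) for genes that reached 1 FPKM in at least 3 libraries, a filter that all 31 subunits passed, with Benjamini-Hochberg adjustment over all genes tested and a threshold of 0.05. Fold changes on this scale understate those of low genes. Line comparisons used 1 model over 11 libraries with quantile normalization, and the line by treatment term used deposited values. The fits were run on simulated reads in which 200 genes changed. The simulation held no outlying library and no shift of the most abundant genes, so it cannot show how the fits behave with these. Alternatives were quantile or deposited scaling, voom on recovered reads, a pseudocount of 0.1, no filter, at least 5 FPKM, no trend, a replicate block, BxPC-3 control 3 kept, and each library left out. Voom with a block or with BxPC-3 control 3 was added after the data were seen. Members and lists were chosen with earlier results of these data known. Per-library values are printed for PSMB5, PSMB6 and PSMB7, for up to 4 called subunits per direction and comparison or, with none, the 2 with the smallest p, and for a few others chosen after their values were seen (PSMC2, PSMD2, PSMD3, and PSMD14, PSMA5 and PSMB2 outside the comparisons that name them). Files pair no names with identifiers, so lists of related genes and of cell type markers were not used here.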

Additional observations from a re-analysis of the deposited data

Results flagged for a closer look

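On deposited values, the ATO and control libraries of 7 subunits did not overlap in either line. They lay in opposite orders, lower with ATO in AsPC-1 and higher with ATO in BxPC-3. This held for 1.33% of the 12436 genes tested in both lines, and the reverse for 1.59% of those genes and 0 subunits. The values are the difference in log2 fold change between the lines, AsPC-1 minus BxPC-3, tested as the line by treatment term with limma. It was -0.91 for PSMA5 (adjusted p = 0.152), -0.99999 for PSMB2 (0.167), -0.70 for PSMB7 (0.189) and -0.50 for PSMC2 (0.242). It was -0.81 for PSMC3 (0.147), -0.69 for PSMD2 (0.232) and -0.47 for PSMD3 (0.302). None of these passed the adjusted threshold of 0.05 in this fit of deposited values from 11 libraries. Without BxPC-3 ATO 1, PSMA5, PSMB2 and PSMC3 passed as lower, beside 0.435% of all genes lower and 2.58% higher. The share of reads in the 20 most abundant genes and the ratio of recovered reads to the library constant also differed between ATO and control in AsPC-1, and their part in the result was not tested.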

How the results depend on the processing

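Of 838 recomputed values, 774 kept their direction and their side of the threshold or their size. With a replicate block, 1 subunit passed in AsPC-1 (PSMB2, limma adjusted p = 0.0374), where 1.9% of all genes passed as lower and 5.91% as higher. With voom and a replicate block 11 passed, all lower, beside 13.4% of all genes lower and 7.77% higher; the catalytic PSMB5, PSMB6 and PSMB7 and the ATPase PSMC3 were among them. In the line by treatment term that fit called 1 (PSMB2, 0.0417), beside 0.109% of all genes lower and 0.3% higher. Deviations of same-numbered libraries had r = 0.331, 0.200 and 0.0814 in AsPC-1 and 0.146 and 0.0591 in BxPC-3, not all over 0.1. Between differently numbered libraries r ran between -0.334 and 0.214 in AsPC-1 and between -0.149 and 0.149 in BxPC-3. With 2 BxPC-3 controls, their deviations mirror each other. The numbers were therefore not taken as pairs. With BxPC-3 control 3 kept, 0 subunits passed between control tumors, with or without voom. Of all genes 0% passed without voom, and with voom 0% passed as higher and 0.00572% as lower. For the line by treatment term, leaving out single libraries of the groups with 3 gave 0 to 3 calls. The 3 came without BxPC-3 ATO 1, beside 0.435% of all genes lower and 2.58% higher. Core minus cap became 0.44 in BxPC-3 ATO and 0.46 in BxPC-3 control libraries with means over members.

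With scaling, signs also turned for subunits outside those picked by rule in a comparison, PSMA7 and PSMC5 within BxPC-3 among them. Among the subunits picked by rule, the signs that turned belonged to values that passed under no setting. PSMA1 in BxPC-3 gave 0.0208 with the replicate block and -0.334 to 0.0208 with single libraries left out, and its line by treatment term gave -0.0461 with voom and the block. PSMB5 in BxPC-3 gave 0.16 with BxPC-3 control 3 kept, 0.15 with voom as well, and -0.0962 to 0.0124 with single libraries left out. PSMB7 between control tumors gave -0.0159 with the block and -0.0405 to 0.0761 with single libraries left out. The causes were not tested. The 2 or 3 libraries a group limit what could be detected.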
